A study of Mus musculus with 8 samples.

Results

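The genes described here are 9 genes that cells switch on in response to interferon, Isg15, Ifit1, Ifit2, Ifit3, Oasl2, Irf7, Rsad2, Usp18 and Ifih1. They were picked by symbol, with earlier results of these data known but by no rule on their values, and each matched 1 of the 26667 gene rows of the count table. They were measured by RNA sequencing in undifferentiated pleomorphic sarcomas (UPS) of the mouse hind limb. In these tumours the 9 genes rose and fell together from animal to animal, over ranges of 4.03-fold (Ifit2) to 17.2-fold (Ifit1), and the KP tumours and the KPH2 tumours, which were bred for deletion of Epas1, the gene for HIF-2α, overlapped for every one of them.

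KP mice carried Trp53 fl/fl among their alleles, and KPH2 mice carried the same alleles as KP mice together with Epas1 fl/fl. Both strains were on a mixed 129/C57BL/6 background, and the labels give the KP tumours the genotype "Wild type" and the KPH2 tumours "Epas1 -/-". Cre recombinase, delivered to the hind limb muscle with an adenovirus (Ad-Cre), deletes Trp53 in both groups and starts the tumours. The animals were of both sexes and at least 8 weeks old at that time. The end point was 7 weeks from injection, or a tumour of the largest size allowed. Ad-Cre acts only in cells that it enters, and which cells of a KPH2 tumour still had Epas1 was not measured here. There were 4 KP tumours (KP 5 to KP 8) and 4 KPH2 tumours (KPH2 1 to KPH2 4), each fixed, embedded in paraffin and sequenced as 1 library of whole tissue. The study set aside 1 knockout tumour as a technical outlier. KPH2 1, the tumour missing from the smaller of the normalized tables, is therefore shown apart, and the fit between groups was made over the other 7 tumours and then over all 8.

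Interferons are secreted proteins that warn cells of viruses and of nucleic acid in the wrong compartment. Type I interferons bind the receptor chains IFNAR1 and IFNAR2, whose kinases JAK1 and TYK2 activate transcription factors that include STAT2. Together with IRF9 these form the complex ISGF3, which binds an element called the ISRE in the promoters of the induced genes. Interferon gamma acts mainly by a different element called GAS. Some of the induced genes encode the sensors and factors that started the response, so the pathway feeds back on itself in both directions. In tumours the same genes can be switched on in the malignant cells, the vessels or the infiltrating immune cells.

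In the gene models of GRCm38, Ifit2 (34550550 to 34576534), Ifit3 (34583119 to 34588982) and Ifit1 (34640889 to 34650009) lie in this order on chromosome 19. The other 6 genes are each on a chromosome of their own, Ifih1 on 2, Isg15 on 4, Oasl2 on 5, Usp18 on 6, Irf7 on 7 and Rsad2 on 12. RefSeq promoter windows of GRCm38.p6, from 250 bases before to 50 bases after the transcription start, were at hand for 8 of the 9 genes, with a pair of starts for Ifit2. The window of Usp18 was not analysed here. Each window was searched on both strands for the letters GAAANNGAAA (TTTCNNTTTC on the other strand), a core of the ISRE. They occurred in 3.44% of 32851 windows of the mouse genome, and in the windows of 5 of these 8 genes. The 160 bases upstream of the start of Isg15, Ifit1, Ifit3 and Rsad2 and a piece of 28 bases downstream of the start of Ifih1 are shown because these 5 hold the core of the element that ISGF3 binds. They are written 5′ to 3′ on the strand of the gene, with the matches in capitals.
Isg15, chr4:156200819-156200978 (- strand): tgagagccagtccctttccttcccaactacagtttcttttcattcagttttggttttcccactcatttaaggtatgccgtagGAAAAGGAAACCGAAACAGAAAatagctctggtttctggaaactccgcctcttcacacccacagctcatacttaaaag
Ifit1, chr19:34640729-34640888 (+ strand): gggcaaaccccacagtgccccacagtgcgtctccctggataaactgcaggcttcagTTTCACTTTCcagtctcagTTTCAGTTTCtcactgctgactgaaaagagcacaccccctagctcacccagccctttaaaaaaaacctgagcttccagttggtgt
Ifit3, chr19:34583369-34583528 (+ strand): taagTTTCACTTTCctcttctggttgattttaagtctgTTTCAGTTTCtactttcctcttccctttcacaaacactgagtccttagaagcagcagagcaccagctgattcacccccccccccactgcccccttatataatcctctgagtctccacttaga
Rsad2, chr12:26456453-26456612 (- strand): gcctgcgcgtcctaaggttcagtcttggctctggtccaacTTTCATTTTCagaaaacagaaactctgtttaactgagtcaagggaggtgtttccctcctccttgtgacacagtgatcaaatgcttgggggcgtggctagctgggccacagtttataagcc
Ifih1, chr2:62646206-62646233 (- strand): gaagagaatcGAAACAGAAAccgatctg

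Isg15 held 3 matches that overlap each other, from 78 to 57 bases upstream of its start. Ifit1 held 2, beginning 104 and 85 bases upstream, and Ifit3 held 2, beginning 156 and 122 bases upstream. Rsad2 held a single match that began 120 bases upstream, and Ifih1 a single match from 33 to 42 bases downstream. The windows of Oasl2, Irf7 and Ifit2 held no match, which says only that these letters are not there. The letters TTCNNNGAA, a core of the GAS element, were found in 8.3% of all windows and, among these genes, in 1 window of Ifit2.

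**Figure D1:**
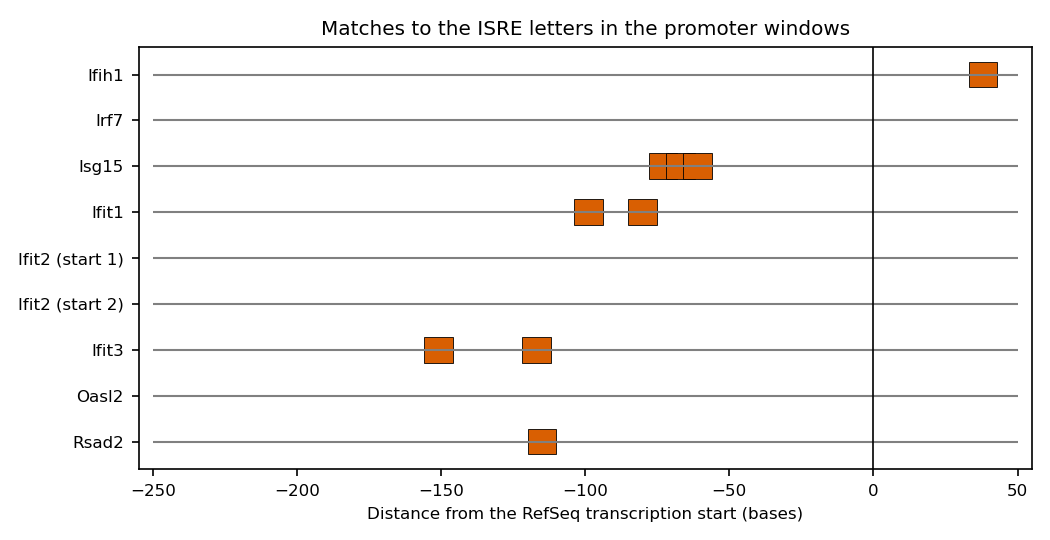
Positions of matches to the ISRE letters (boxes) in the promoter windows of 8 genes, by distance in bases from the RefSeq transcription start (vertical line). Of the 9 matches, 8 lie upstream of the start and the match of Ifih1 lies downstream.

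The libraries held 6463221 (KP 6) to 13155510 (KP 5) counted reads, and the 9 genes had 27 to 1974 reads per library, so all 9 passed the filter on low counts. Values are given as CPM, reads per 1000000 after TMM scaling of the libraries. The lowest count, 27 reads for Isg15 in KP 7, gave 4.00 CPM with an exact Poisson interval (95%) of 2.64 to 5.82 CPM, against 37.3 CPM with an interval of 34.1 to 40.7 CPM in KP 5, and these intervals cover counting error only. Epas1, the deleted gene, was at 59.2, 83.2, 86.9 and 84.1 CPM in KP 5, KP 6, KP 7 and KP 8, at 32.6 CPM in KPH2 1, and at 53.4, 37.7 and 42.5 CPM in KPH2 2, KPH2 3 and KPH2 4. Every KPH2 tumour was thus below every KP tumour, and the log2 fold change was −0.81 (SE 0.19, edgeR adjusted p = 0.0742). The 10 sarcoma mesenchyme markers were found in all 8 libraries, from Thy1 (48.3 to 335 CPM) to Fn1 (5465 to 25047 CPM), and 1 of them, Pdgfra, was lower in KPH2 tumours (log2 fold change −2.02, edgeR adjusted p = 0.0183, and −1.54 with adjusted p = 0.160 over all 8). The 24 skeletal muscle markers summed to 1804 to 3300 CPM in KP tumours and to 1488 to 19194 CPM in KPH2 tumours. Over 7 tumours all 24 had a log2 fold change above 0 (median 2.15), where 52.0% of all tested genes were below 0. By edgeR 23 were higher at an unadjusted p under 0.05 (8.50% of all tested genes). An adjusted p of 0.05 was passed by 2 (smallest 0.00922), beside 1.96% of all tested genes. Over all 8 the median was 1.796 and 0 passed, beside 0.00675% of all tested genes. At an unadjusted p under 0.05 there were 15, where 14.7% of tested genes had such a p in either direction.

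Ifih1 encodes MDA5, a cytoplasmic sensor of long double-stranded RNA. It was at 68.3, 47.7, 16.01 and 66.1 CPM in KP 5 to KP 8, at 29.4 CPM in KPH2 1, and at 46.1, 17.6 and 69.2 CPM in KPH2 2 to KPH2 4. The lowest tumour was a KP tumour and the highest a KPH2 tumour, so the groups overlapped over almost their whole range. The log2 fold change of KPH2 over KP was −0.17 (SE 0.56, edgeR adjusted p = 0.915).

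Irf7 encodes the transcription factor that amplifies the transcription of type I interferon genes. Its level was 144, 39.6, 16.9 and 149 CPM in KP 5 to KP 8, 26.5 CPM in KPH2 1, and 78.0, 16.4 and 62.2 CPM in KPH2 2 to KPH2 4. KP 5 and KP 8 stood above every KPH2 tumour, while KP 7 was as low as KPH2 3. The log2 fold change was −0.75 (SE 0.79, edgeR adjusted p = 0.676).

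Isg15 encodes a ubiquitin-like protein that is joined to other proteins during the response. It was at 37.3, 9.62, 4.00 and 25.5 CPM in KP 5 to KP 8, at 8.15 CPM in KPH2 1, and at 32.3, 3.302 and 22.7 CPM in KPH2 2 to KPH2 4. Each group held both low and high tumours, and the group means of 19.1 ± 15.2 CPM (SD, n = 4) and 19.4 ± 14.8 CPM (SD, n = 3) were nearly equal. Usp18 encodes the protease that removes ISG15 from proteins and also restrains the type I receptor. It was at 48.3, 17.7, 9.78 and 30.6 CPM in KP 5 to KP 8, at 13.9 CPM in KPH2 1, and at 25.02, 5.60 and 26.7 CPM in KPH2 2 to KPH2 4. Only KP 5 and KP 8 exceeded all KPH2 tumours for Usp18. Over the 7 tumours the log2 fold change was 0.01 (SE 0.84, edgeR adjusted p = 0.998) for Isg15 and −0.49 (SE 0.64, edgeR adjusted p = 0.746) for Usp18.

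The 3 Ifit genes encode proteins of tetratricopeptide repeats, of which IFIT1 binds viral RNA that lacks the methylated cap of host messages. Ifit1 was at 146, 41.0, 17.3 and 64.8 CPM in KP 5 to KP 8, at 35.3 CPM in KPH2 1, and at 67.5, 8.51 and 65.5 CPM in KPH2 2 to KPH2 4. KP 5 stood alone at the top, and KP 8 was level with KPH2 2 and KPH2 4. Ifit2 was at 145, 76.5, 42.8 and 135 CPM in KP 5 to KP 8, at 47.2 CPM in KPH2 1, and at 69.4, 36.0 and 80.5 CPM in KPH2 2 to KPH2 4. Of the 9 genes it had the narrowest range over the tumours. Ifit3 was at 113, 34.8, 12.6 and 74.6 CPM in KP 5 to KP 8, at 21.3 CPM in KPH2 1, and at 46.9, 7.91 and 47.8 CPM in KPH2 2 to KPH2 4. KP 5 and KP 8 were above all KPH2 tumours for Ifit2 and Ifit3, and KP 7 was below KPH2 2 and KPH2 4. The log2 fold changes were −0.52 (SE 0.81) for Ifit1, −0.69 (SE 0.45) for Ifit2 and −0.79 (SE 0.79) for Ifit3, with edgeR adjusted p of 0.797, 0.475 and 0.658. Of the stretches of 100 bases in the Ifit3 transcripts, 31.7% also occur in its copy Ifit3b. The study counted unique alignments, so reads from those stretches could be missing from the Ifit3 value. For Ifit1 that share was 3.29%, with Ifit1bl2, and for Ifit2 it was 0.

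Oasl2 encodes a protein related to the oligoadenylate synthetases that carries ubiquitin-like domains. It was at 107, 45.1, 16.01 and 67.4 CPM in KP 5 to KP 8, at 22.6 CPM in KPH2 1, and at 62.2, 15.7 and 69.9 CPM in KPH2 2 to KPH2 4. KP 7 and KPH2 3 had almost the same low level. Rsad2 encodes viperin, an enzyme that makes a chain-terminating nucleotide. It was at 92.2, 48.4, 26.2 and 90.7 CPM in KP 5 to KP 8, at 24.2 CPM in KPH2 1, and at 80.8, 8.81 and 77.3 CPM in KPH2 2 to KPH2 4. KPH2 3 was the only tumour under 10 CPM for Rsad2. The log2 fold change was −0.27 (SE 0.66, edgeR adjusted p = 0.878) for Oasl2 and −0.22 (SE 0.70, edgeR adjusted p = 0.913) for Rsad2.

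**Figure D2:**
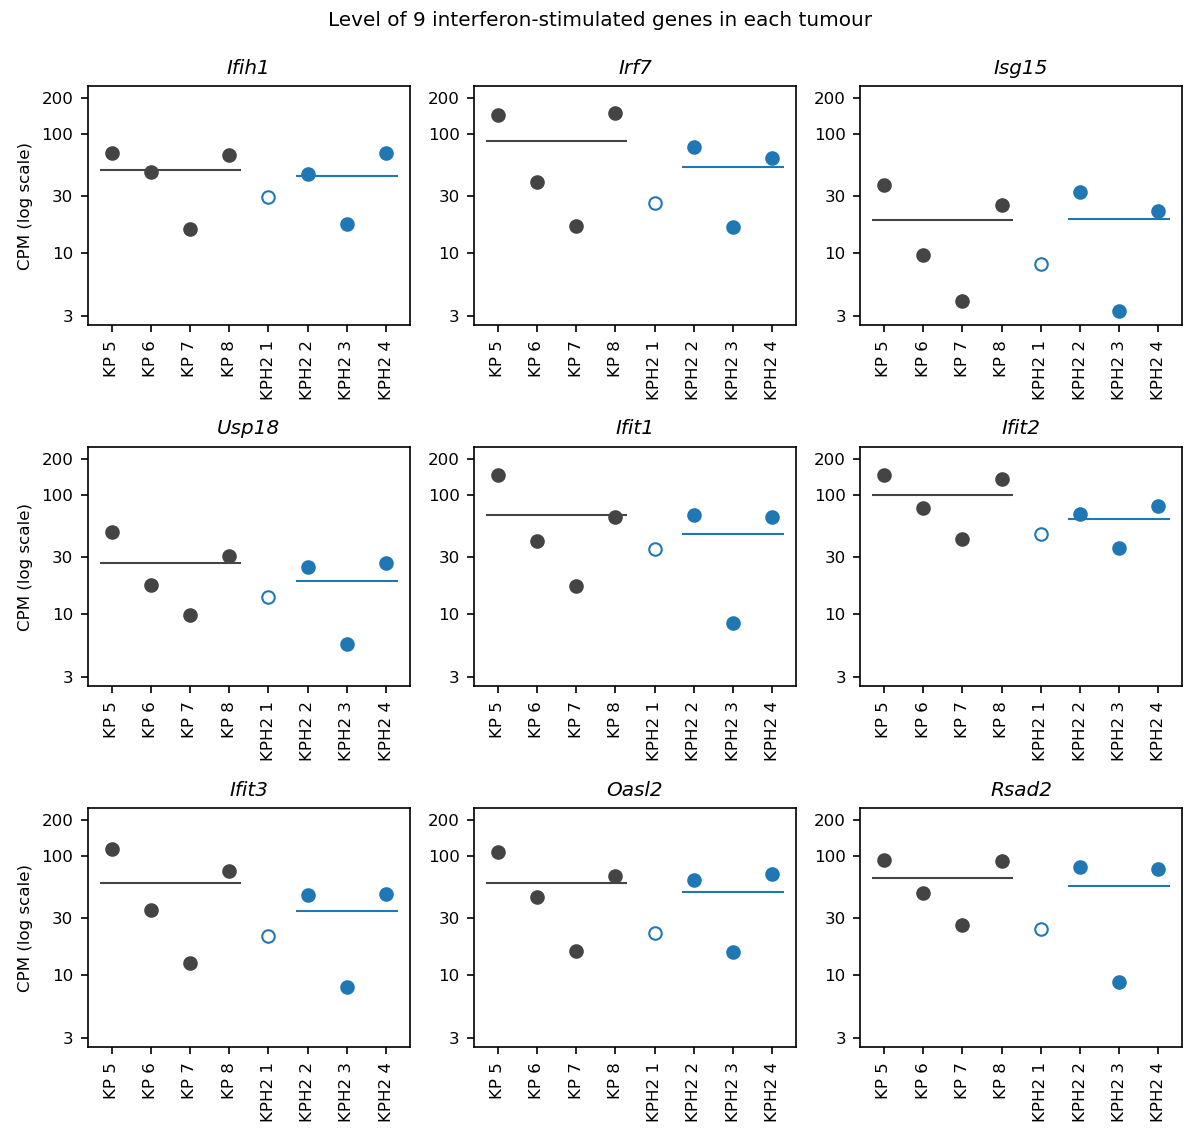
CPM (log scale) of the 9 genes in each tumour, with KP tumours in grey, KPH2 tumours in blue, KPH2 1 as an open circle, and lines at the mean of 4 KP tumours and of KPH2 2 to KPH2 4. The groups overlap in every panel, and KP 7, KPH2 1 and KPH2 3 hold the lowest 3 places for all 9 genes.

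None of the 9 genes passed an adjusted p of 0.05 in the edgeR quasi-likelihood test over 7 tumours, where 1.96% of 14867 tested genes did. None reached an unadjusted p of 0.05 by edgeR (17.8% of tested genes), and 0 passed an adjusted p of 0.05 in the Wald test of DESeq2. The groups overlapped for all 9, whereas 16.9% of tested genes had groups that did not overlap. The log2 fold change was below 0 for 8 of the 9 genes, with a median of −0.49, beside 52.0% of tested genes and a median of −0.02. The 95% confidence intervals all included 0. The narrowest, for Ifit2, ran from −1.72 to 0.34, and the interval for Ifit3 ran from −2.60 to 1.02, which in folds is 0.164 to 2.03. In exact permutation tests over the 35 ways of splitting the 7 tumours, the p for the difference of mean log2 CPM was 0.257 for Ifit2 and 0.514 to 1 for the other 8 genes (two-sided). The smallest p that this design allows is 0.029.

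**Figure D3:**
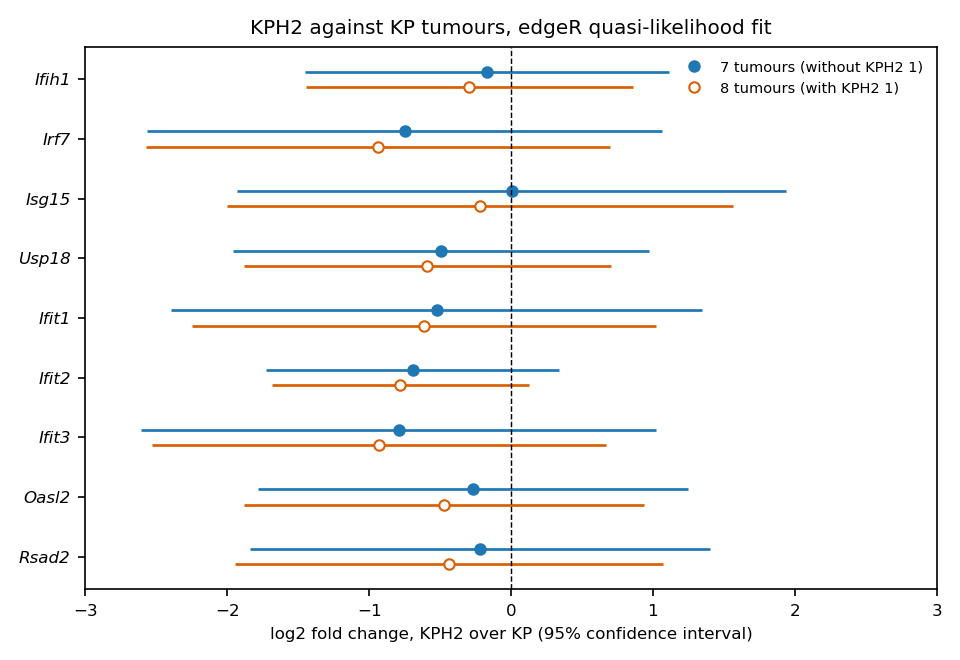
The log2 fold change of KPH2 over KP with its 95% confidence interval for each gene, from the edgeR fit over 7 tumours (filled circles) and over all 8 (open circles). Every interval crosses 0, and the points lie between −0.94 and 0.01.

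With KPH2 1 included, all 9 log2 fold changes were below 0, from −0.94 for Irf7 to −0.22 for Isg15, with a median of −0.59, and 49.1% of tested genes were below 0. Again 0 of the 9 passed an adjusted p of 0.05 by edgeR (0.00675% of 14805 tested genes did), and 0 reached an unadjusted p of 0.05 (14.7% of tested genes). The groups again overlapped for all 9, and did not overlap for 8.15% of tested genes. KPH2 1 was inside the range of the KP tumours for 8 of the 9 genes and below it for Rsad2. In the fit over 7 tumours, the direction depended on single tumours. Without KP 5 the median of the 9 genes was 0.02, and the values of Isg15 (0.56), Ifit1, Oasl2, Rsad2 and Ifih1 were above 0. Without KPH2 3 the median was −0.02, and Isg15 (0.51), Oasl2, Rsad2 and Ifih1 were above 0. The other genes stayed below 0 but moved toward it, such as Usp18 to −0.02 and Ifit3 to −0.25 without KP 5.

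Tumours of one group differed widely from each other. KP 5 was the highest tumour for 7 of the 9 genes and ranked first or second for all, and KPH2 3 was the lowest for 8. KP 7, KPH2 1 and KPH2 3 filled the lowest 3 places for every gene, and KP 6 always had rank 4 or 5. Over the 4 KP tumours alone the highest value was 3.39 times the lowest for Ifit2 and 9.31 times for Isg15. Over KPH2 2 to KPH2 4 it was 2.23 times for Ifit2 and 9.79 times for Isg15. Over all 8 tumours, KPH2 1 included, the standard deviation of log2 CPM within groups was 0.69 for Ifit2 and 1.44 for Isg15. The median over all tested genes was 0.34. By this measure the 9 genes lay between the 83.3 percentile (Ifit2) and the 97.7 percentile (Isg15) of all tested genes.

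**Figure D4:**
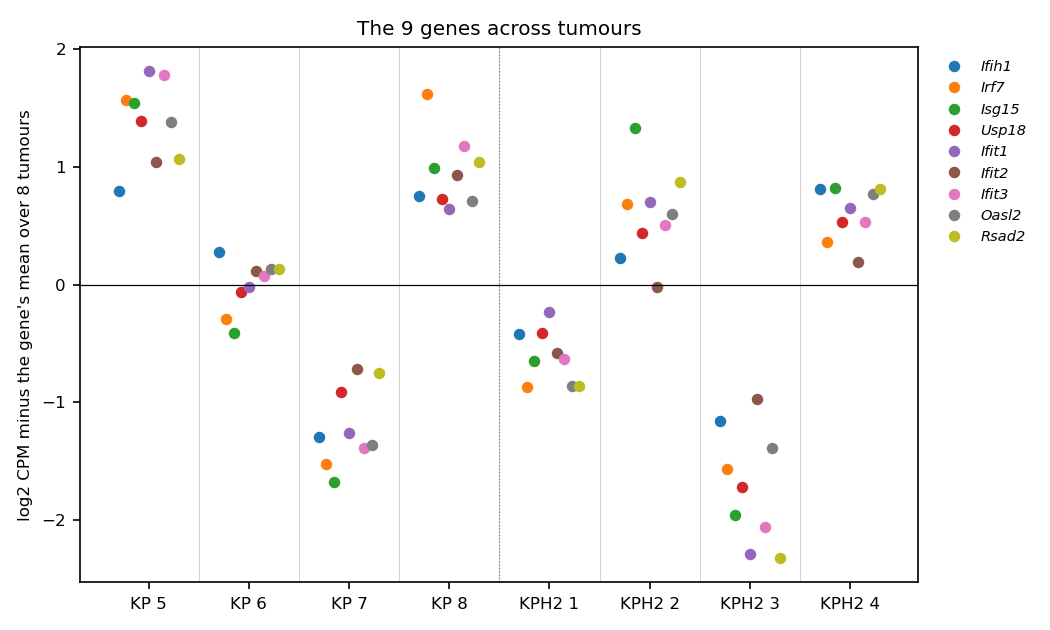
The log2 CPM of each gene minus its mean over 8 tumours, by tumour, 1 colour a gene. All 9 genes lie below 0 in KP 7, KPH2 1 and KPH2 3 and above 0 in KP 5, KP 8 and KPH2 4.

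Across the 8 tumours the 36 pairs among the 9 genes had Pearson correlations of log2 CPM from 0.86 to 0.99, with a median of 0.94. Each gene followed the mean of the other 8 with r from 0.94 (Ifit2) to 0.99 (Ifit3), and Spearman's rho was 0.79 for Ifih1 and at least 0.90 for the others. With the 2 tumours farthest from the median left out, r was 0.87 for Ifih1 and 0.98 for Ifit3, and with each group's mean taken off it was 0.94 for Rsad2 and 0.996 for Ifit3. These values describe 8 points that share library, depth and scaling between the genes. In whole tissue, fewer cells of a type and less RNA per cell cannot be told apart.

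The size of the swing differed among the genes. Between the highest and the lowest of the 8 tumours Ifit1 differed 17.2-fold, Ifit3 14.3-fold, Isg15 11.3-fold and Rsad2 10.5-fold. Irf7 differed 9.08-fold, Usp18 8.63-fold and Oasl2 6.83-fold, while Ifih1 (4.32-fold) and Ifit2 (4.03-fold) moved least. Per kilobase of annotated exon, the mean level over 8 tumours was 25.7 CPM per kb for Ifit3, 23.6 for Isg15, 21.0 for Ifit1 and 20.1 for Ifit2. It was 17.6 CPM per kb for Irf7, 12.9 for Rsad2, 7.97 for Oasl2, 7.96 for Usp18 and 5.52 for Ifih1. The ranges over tumours of all neighbours in this order overlapped, for example 4.53 to 64.8 CPM per kb for Ifit3 and 4.37 to 49.3 for Isg15. The exon lengths count every annotated isoform, and that of Ifit3 includes the stretches shared with Ifit3b.

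Of all other genes tested, 54 (0.365%) followed the mean of the 9 genes with r over 0.9. The 10 closest were Cmpk2 (r = 0.991), Rnf213 (0.990), Ifi44 (0.990), Gbp2 (0.989), Rtp4 (0.984), Xaf1 (0.983), Ifit3b (0.983), Gbp3 (0.974), Cxcl10 (0.974) and Oasl1 (0.973). All of these belong to the lists of interferon-responsive genes drawn up for this comparison, 9 of them to a list of 45 other interferon-stimulated genes and Gbp2 to a list of 15 genes typical of interferon gamma. Rnf213, which encodes a very large ubiquitin ligase, was the most abundant of that first list, at 1440, 809, 466 and 1130 CPM in KP 5 to KP 8, 573 CPM in KPH2 1, and 987, 433 and 1115 CPM in KPH2 2 to KPH2 4. Cxcl10, a chemokine that attracts T cells, was at 58.5, 23.3, 11.6 and 50.3 CPM in KP 5 to KP 8, 21.5 CPM in KPH2 1, and 39.9, 5.60 and 31.3 CPM in KPH2 2 to KPH2 4. Both were chosen for their likeness to the 9 genes, so their order of tumours is no separate result. Among the 50 closest genes 35 were in one of the lists, and the closest gene in none was Esm1, an endothelial secreted proteoglycan (r = 0.960), named here because of that value.

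Of the list of 45 other interferon-stimulated genes, 44 were tested, 37 had a log2 fold change below 0 (52.0% of all tested genes) and 7 above, and the median was −0.41. None passed an adjusted p of 0.05 by edgeR, and at an unadjusted p under 0.05 there were 4 lower and 1 higher (9.26% and 8.50% of all tested genes). Over all 8 tumours there were 7 lower and 0 higher, where 14.7% of tested genes had such a p in either direction. Their r with the mean of the 9 genes was over 0.9 for 27 and over 0.8 for 35. The largest log2 fold changes were those of Ifit1bl1, a relative of Ifit1 (−1.64, SE 0.62, edgeR adjusted p = 0.215), and of Slfn5, a Schlafen family gene (−0.98, SE 0.46, edgeR adjusted p = 0.314). Ifit1bl1 was at 10.1, 6.08, 2.82 and 18.4 CPM in KP 5 to KP 8, 2.56 CPM in KPH2 1, and 4.23, 1.801 and 3.04 CPM in KPH2 2 to KPH2 4, so KP 7 lay among the KPH2 tumours. Parp14, an ADP-ribosyltransferase among the most abundant of the list, had a log2 fold change of −0.63 (SE 0.40, edgeR adjusted p = 0.466). Ifitm3, a membrane protein that blocks virus entry, had values in the other direction, 163, 143, 105 and 212 CPM in KP 5 to KP 8, 136 CPM in KPH2 1, and 463, 173 and 210 CPM in KPH2 2 to KPH2 4 (log2 fold change 0.85, SE 0.37, edgeR adjusted p = 0.275). Its r with the 9 genes was 0.46.

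Reads from the interferon genes themselves were almost absent. The 20 ligand genes together had 109 reads in the 8 libraries, or 0.810 to 2.10 CPM a tumour, 6 of them had none, and none passed the filter. Ifnb1, an early type I interferon, had 2 reads in KPH2 2, 3 in KPH2 4 and 0 in the other 6 libraries, and a count of 0 allows up to 0.223 to 0.445 CPM depending on the library. Ifng, the type II interferon, had 15 reads in all, 5 in KP 5, 6 in KP 8, 2 in KPH2 3, 1 each in KP 7 and KPH2 4, and 0 in KP 6, KPH2 1 and KPH2 2. Ifnk (38 reads) and Ifna13 (26 reads) accounted for most of the rest. No ligand gene was tested between groups.

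Receptor and JAK-STAT genes followed the 9 genes only in part. Of 16 tested, 14 had a log2 fold change below 0 (median −0.30) and none passed an adjusted p of 0.05 by edgeR, with 2 lower at an unadjusted p under 0.05, beside 52.0% of all tested genes below 0, 1.96% called and 9.26% lower at that p. Over all 8 tumours 4 were lower at an unadjusted p under 0.05, where 14.7% of tested genes had such a p in either direction. Over the 8 tumours Stat2 (r = 0.963), Irf9 (0.936) and Socs1 (0.811) were among those that followed the 9 genes with r over 0.8, Stat2 and Irf9 being named because of these values, and the median r of the list was 0.07. Stat2 and Irf9 encode parts of ISGF3, and Socs1 encodes an inhibitor of the receptor kinases. The receptor chain Ifnar1 was at 175, 242, 249 and 217 CPM in KP 5 to KP 8, 155 CPM in KPH2 1, and 126, 207 and 171 CPM in KPH2 2 to KPH2 4, and its r was −0.36. The kinase Jak1 ranged from 243 to 388 CPM and the phosphatase gene Ptpn11 from 201 to 280 CPM, both narrow ranges beside those of the 9 genes. Socs1 had a log2 fold change of −0.61 (SE 0.38, edgeR adjusted p = 0.456). Ifngr2, a chain of the interferon gamma receptor, was lower in every KPH2 tumour (68.3 to 108 CPM) than in every KP tumour (112 to 188 CPM), with a log2 fold change of −0.68 (SE 0.22, edgeR adjusted p = 0.157). It was the 1 gene of the 16 whose groups did not overlap, beside 16.9% of all tested genes over 7 tumours and 8.15% over 8.

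Of 19 sensors, adaptors and interferon regulatory factors, 14 had a log2 fold change below 0 (median −0.26), none passed an adjusted p of 0.05 by edgeR, and 2 were lower at an unadjusted p under 0.05, beside the same shares of all tested genes (52.0%, 1.96% and 9.26%). Their median r with the 9 genes was 0.35. Those over 0.8 were Dhx58 (r = 0.970), Ddx58 (0.957) and Tlr3 (0.847), which all encode sensors of double-stranded or viral RNA, and Dhx58 and Tlr3 are named because of these values. Ddx58, which encodes RIG-I, was at 149, 79.1, 56.5 and 106 CPM in KP 5 to KP 8, 54.8 CPM in KPH2 1, and 81.8, 46.8 and 98.4 CPM in KPH2 2 to KPH2 4. Tlr7, an endosomal sensor of single-stranded RNA, was at 38.4 to 55.3 CPM in KP tumours and 25.4 to 38.1 CPM in KPH2 tumours (log2 fold change −0.65, SE 0.21, edgeR adjusted p = 0.153). The adaptor genes Unc93b1 (56.3 to 148 CPM) and Traf3 (73.8 to 100 CPM) and the DNA sensor Mb21d1 (7.20 to 17.3 CPM) had log2 fold changes of −0.16 (SE 0.20), 0.20 (SE 0.14) and −0.49 (SE 0.26), with edgeR adjusted p of 0.722, 0.516 and 0.365. Over 7 tumours the groups did not overlap for 3 of the 19 genes, among them Tlr7, lower in KPH2, and Traf3, higher in KPH2, and over all 8 for Tlr7 alone, beside 16.9% and 8.15% of all tested genes.

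All 14 tested genes typical of interferon gamma had a log2 fold change below 0, with a median of −0.63 over 7 tumours and −0.81 over 8. None passed an adjusted p of 0.05 by edgeR and 0 reached an unadjusted p of 0.05, and over all tested genes 52.0% were below 0, 1.96% were called and 17.8% reached that unadjusted p. Iigp1, an immunity-related GTPase, was at 118, 51.5, 19.4 and 80.4 CPM in KP 5 to KP 8, 18.9 CPM in KPH2 1, and 44.6, 34.2 and 52.4 CPM in KPH2 2 to KPH2 4, so that KP 7 was below all of KPH2 2 to KPH2 4. Gbp7 and Gbp2, guanylate-binding proteins, had log2 fold changes of −0.39 (SE 0.28) and −0.33 (SE 0.49). Tgtp1, another GTPase gene, at 0.445 to 5.87 CPM, had −0.86 (SE 0.71), and Nos2, the inducible nitric oxide synthase, had −0.81 (SE 0.42). The median r of these 14 genes with the 9 genes was 0.84. Most markers of several cell types also had log2 fold changes below 0 over the 7 tumours, and their part in these values was not tested. Such values were found for 11 of 12 macrophage markers (median −0.55), 7 of 8 T and NK cell markers (−0.58), 8 of 10 endothelial markers (−0.55) and 4 of 4 neutrophil markers (−0.55). None of these passed an adjusted p of 0.05 by edgeR. At an unadjusted p under 0.05, 4, 0, 5 and 1 of them were lower, beside 9.26% of all tested genes. Of 5 plasmacytoid dendritic cell markers 3 were above 0 and 2 below, and all 24 skeletal muscle markers were above.

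Markers of other cell types were set beside the 9 genes, and their part in the pattern was not tested. The 12 macrophage markers, all detected in every tumour, summed to 1733 to 2959 CPM in KP and 1193 to 1945 CPM in KPH2 tumours, and their mean log2 CPM had an r of 0.07 with that of the 9 genes. KP 5, the highest tumour for most of the 9 genes, had the lowest macrophage sum of the KP tumours. The 8 tested T and NK cell markers summed to 14.5 to 35.8 CPM in KP and 7.19 to 26.7 CPM in KPH2 tumours (r = 0.15). The 10 endothelial markers summed to 356 to 656 CPM in KP and 261 to 363 CPM in KPH2 tumours (r = −0.03). Their groups did not overlap for 4 genes, all lower in KPH2, over 7 tumours and also over all 8. Of all tested genes, 16.9% and 8.15% had groups that did not overlap. The 24 skeletal muscle markers (r = −0.10) and the 4 tested neutrophil markers (12.8 to 61.8 CPM) also had values of r near 0. So did the 10 sarcoma mesenchyme markers (18634 to 43546 CPM, r = −0.03). With the 2 tumours farthest from the median left out, r was 0.58 for T and NK cells, 0.51 for muscle, 0.78 for mesenchyme, 0.75 for plasmacytoid dendritic cells and −0.52 for neutrophils. It was 0.15 for macrophages, 0.22 for endothelial cells and 0.36 for B cells, so several of these values rest on few tumours. The 5 tested plasmacytoid dendritic cell markers had r = 0.52 and summed to 469 to 812 CPM, mostly Tcf4 (416 to 790 CPM), while Siglech was at 0.160 to 2.04 CPM, and Bst2 of that list is itself induced by interferon. Of the B cell markers 3 were tested (3.85 to 12.4 CPM, r = 0.48). Among defining markers, Elane had 0 reads in all 8 libraries and Ly6g in 6 of them. KP 5 and KP 8, which were high for the 9 genes, were the deepest KP libraries, and KPH2 1, which was low, had 13080056 reads.

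**Figure D5:**
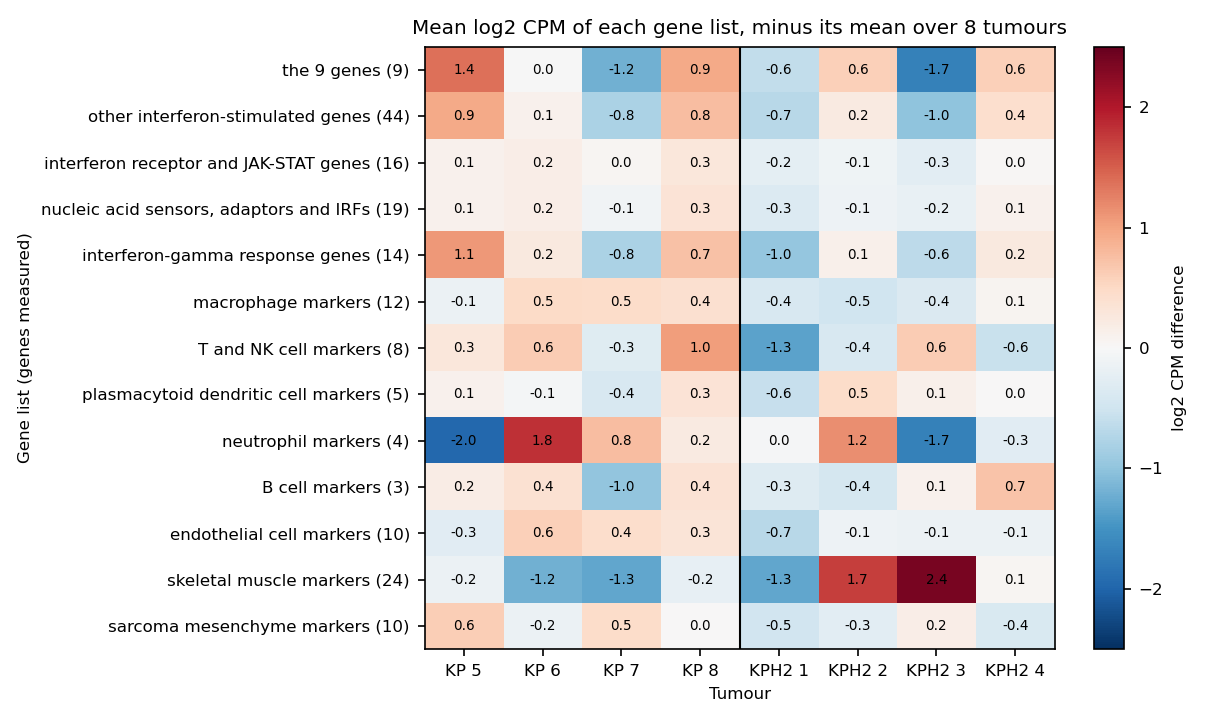
Mean log2 CPM of each gene list in each tumour minus the mean of that list over 8 tumours, with the number of genes in brackets, on a colour scale of log2 CPM. The top row (the 9 genes) is matched in sign by the interferon-stimulated genes of the second row in every tumour other than KP 6, where both are close to 0, while the macrophage, endothelial and muscle rows differ from it.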

How the data were processed

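RNA from paraffin sections of 4 KP and 4 KPH2 tumours was sequenced after ribosomal RNA removal, with a kit that keeps strand. Per the labels, reads were aligned to GRCm38 with STAR 2.4 and the deposited counts per RefSeq gene, which are not normalized, were made with HTSeq 0.6.1. Whether the counting used strand is not given in the sources used here. The authors also deposited log2 values from the rlog transformation of DESeq2 1.6, which scales libraries and shrinks low genes, in a table of 7 and a table of 8 tumours.

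Counts of all genes were fitted in R 4.3.3 with edgeR 4.0.16 (TMM, filter with minimum count 10 and minimum total count 15, robust quasi-likelihood test, Benjamini-Hochberg adjustment over all tested genes, threshold 0.05) over KP 5 to KP 8 and KPH2 2 to KPH2 4. CPM used TMM library sizes and log2 CPM a prior count of 2. A change in a gene with low counts is understated on that scale. Fits were tested on simulated data. Exact permutation tests were made over tumours. Alternatives were all 8 tumours, other scalings and filters, DESeq2 1.42.0, a muscle marker covariate, no robust estimation, each tumour left out, rlog values and prior counts of 0.5 and 5. The tumours were taken as separate animals, since each label gives 1 number, and p-values measure the spread between these tumours only. No pair of libraries agreed within sampling noise (chi-square over degrees of freedom at least 28.3).

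Genes named were the 9 genes, Epas1, from each pathway list every gene past the threshold or otherwise the 3 most abundant and the 2 with the largest change among those tested, and the 10 genes closest to the mean of the 9. The genes and lists were chosen with earlier results of these data known. Gene positions, exon lengths and promoters came from RefSeq and gene models of GRCm38, and list symbols were matched to the older symbols of the files where needed (the T cell marker Trac had no match). An allele that both groups carry and the values of a further gene of the lists are not reported here.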

Additional observations from a re-analysis of the deposited data

Results flagged for a closer look

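In groups of 4 tumours, the gap between the highest or lowest tumour and its neighbour was set against the range of the group, both on the log2 CPM scale, with a limit of 0.829, for 76 combinations of gene and group. For 3 of them the gap passed the limit, and chance alone passes about 5% of such groups. For Traf3 in KPH2 tumours, KPH2 1 was lowest and the gap took up 0.982 of the log2 range (80.9 CPM against 100 CPM in each of the other 3). For Tlr7 in KPH2 tumours, KPH2 4 was highest, with 0.865 of the log2 range (38.1 CPM against 25.4 to 26.8 CPM). For Epas1 in KP tumours, KP 5 was lowest, with 0.887 of the log2 range (59.2 CPM against 83.2 to 86.9 CPM). No combination of the 9 interferon-stimulated genes with a group passed the limit.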

How the results depend on the processing

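None of the 9 genes passed the threshold under any of the 15 alternatives to the fit, and the smallest adjusted p among them was 0.247. Of 135 log2 fold changes, 119 kept their direction and 16 changed it. Isg15 was −0.22 with all 8 tumours, −0.013 with upper-quartile factors, −0.0044 with a mean count of at least 50 and −0.39 with the muscle marker covariate, under which Ifih1 was 0.15. With single tumours left out, Isg15 was −0.21 (KP 6), −0.32 (KP 7), −0.58 (KPH2 2) and −0.11 (KPH2 4). Without KP 5, Ifit1 was 0.20, Oasl2 0.20, Rsad2 0.02 and Ifih1 0.03. Without KPH2 3, Oasl2 was 0.16, Rsad2 0.29 and Ifih1 0.21. The lowest and highest values with a tumour left out were −0.58 and 0.56 for Isg15, −0.87 and 0.20 for Ifit1, −0.60 and 0.20 for Oasl2, −0.59 and 0.29 for Rsad2, and −0.64 and 0.21 for Ifih1. They were −0.80 and −0.02 for Usp18, −1.12 and −0.25 for Ifit3, −1.16 and −0.32 for Irf7, and −0.94 and −0.42 for Ifit2. The median of the 9 genes ran from −0.80 (without KPH2 4) to 0.02 (without KP 5) as tumours were left out. All 36 alternative level differences kept their direction (smallest exact permutation p = 0.2). Over all genes, 292 were called, against 1 with all 8 tumours, 1178 by the Wald test of DESeq2, 3 with the muscle covariate and 55 (without KPH2 2) to 349 (without KP 5) with a tumour left out. The cause of these differences was not tested. No paired analysis was possible because the KP tumours are numbered 5 to 8 and the KPH2 tumours 1 to 4, so no number is shared. For Isg15, the gene with the lowest counts, the 95% interval of the fold between groups ran from 0.262 to 3.84, and the counting interval in KP 7 from 2.64 to 5.82 CPM.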
